A study of Mus musculus with 2 samples.

Results

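Maturing monocytes are described here as tumour leukocytes that carried Lyz2, the lysozyme transcript of myeloid cells, but hardly any Chil3, Hp or Mgst1. Those 3 transcripts encode a chitinase-like lectin, haptoglobin and a microsomal glutathione transferase, and mark monocytes that have recently left the bone marrow. Members were chosen by UMI counts in each cell. A cell was a member with at least 10 Lyz2 UMIs, unique molecular identifiers that count each captured transcript once, and under 3 UMIs summed over Chil3, Hp and Mgst1. It also had fewer than 10 UMIs of the complement genes C1qa, C1qb and C1qc, fewer than 5 of Cxcl9 and Cxcl10, fewer than 3 of Cxcl1, Cxcl3 and Inhba, at most 1 of the CD3 genes and at most 1 of the dendritic cell genes Cd209a, Cd209d, Flt3, Xcr1, Clec9a and Ccr7. Fewer than 3 of the 5 genes Hspb1, Pgf, Sdc1, Rhov and Arg2 were detected in it. The rule took 83 of 2611 cells, 67 of 1310 in the control library and 16 of 1301 in the Nrp1L/L library. Because it reads measured counts, every value of those genes, and every comparison of members with cells that fail 1 condition of the rule, is a description without a test.

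The cells were CD45+ leukocytes sorted from B16 melanomas, a transplanted mouse tumour line, 14 days after tumour cells were injected into female C57BL/6 mice, which were 5 weeks old. Control animals were Foxp3Cre-YFP mice, in which the Foxp3 gene of regulatory T cells drives Cre recombinase and a fluorescent protein. The Nrp1L/L library came from Nrp1L/LFoxp3Cre-YFP mice, which carry the same driver and floxed Nrp1, the gene of the co-receptor neuropilin-1, so that Cre acts in Foxp3-expressing cells and not in monocytes. Each genotype had 1 library, and the labels do not say how many mice or tumours went into it. Genotype, mouse, tumour and library therefore cannot be told apart, and the intervals below cover counting error alone.

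Classical monocytes carry Ly6C and the chemokine receptor CCR2, leave the marrow, enter tumours and there become macrophages or monocyte-derived antigen-presenting cells. As they do so they lose Ly6C, CCR2 and granule transcripts, load peptides on major histocompatibility complex (MHC) class II, and later express complement C1q, apolipoprotein E and lysosomal genes. Interferon-gamma from T and NK cells induces class II through the coactivator CIITA, and also guanylate-binding proteins and the chemokines CXCL9 and CXCL10.

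The control library held 13042802 UMIs and a median of 8079.5 per cell, against 8978610 and 5334 in the Nrp1L/L library. Members had a median of 6767 UMIs (3492 to 12909) in control and 6179 (3105 to 18339) in Nrp1L/L cells, where the deepest of the 16 cells held 15.7% of their UMIs. The libraries shared 3 cell barcodes, 0 of them members. The neighbouring populations each broke 1 condition of the rule. They were early monocytes with at least 3 Chil3, Hp and Mgst1 UMIs (149 control and 41 Nrp1L/L cells), C1q macrophages (227 and 68), interferon chemokine monocytes with Cxcl9 and Cxcl10 (41 and 59), and Cxcl1 and Cxcl3 monocytes (39 and 2).

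The label was checked against its 4 markers. Lyz2, part of the rule, ran from 10 to 292 UMIs per control member (median 49) and from 13 to 498 in the Nrp1L/L library (median 60). Ly6i, a Ly6 family surface antigen of monocytes, had a UMI in 18 of 67 and 9 of 16 members. Il1b, the interleukin-1 beta cytokine, had one in 47 and 9 members, and Ccr2 in 32 and 9. The name thus rests on Lyz2 in every member and on Ly6i or Ccr2 in part of them. These markers do not by themselves tell members from their neighbours. Lyz2 was also in every early monocyte and C1q macrophage. A UMI of Ccr2 was found in 47.8% of control members, 78.5% of early monocytes and 49.8% of C1q macrophages. In the Nrp1L/L library the shares were 56.25%, 90.2% and 52.9%. For Ly6i they were 26.9%, 26.2% and 11.9% in the control and 56.25%, 43.9% and 39.7% in the Nrp1L/L library. Chil3, Hp and Mgst1 together were absent from 67.2% of control members and 68.8% of Nrp1L/L members, the others having 1 or 2 UMIs. C1q genes were at 0 in 33 of 67 and 8 of 16.

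Markers of most other cell types were sparse but not absent, while those of macrophages and the plasmacytoid dendritic cell marker Bst2 were common. Of 10 macrophage markers, 10 had UMIs in control and 9 in Nrp1L/L members, with per-cell medians of 12 and 8. At least 3 such UMIs were held by 59 of 67 and 12 of 16 members, although the rule limits the C1q genes among them. The list of 10 neutrophil markers had UMIs for 2 genes in control members and 1 in Nrp1L/L members, with S100a8, S100a9, Cxcr2, Retnlg and Ly6g at 0. Of 12 conventional dendritic cell markers, 5 and 4 had UMIs, summing to between 0 and 34 per control member and 0 and 30 per Nrp1L/L member, with Zbtb46, Cacnb3 and Itgae at 0. The rule itself limits Clec9a, Flt3, Xcr1, Cd209a and Ccr7, so their low counts say nothing of identity. Cells with at least 3 such UMIs numbered 9 of 67 and 3 of 16. Of 7 NK cell markers, 5 and 4 had UMIs, with per-cell sums of 0 to 76 and 0 to 11. Of 8 plasmacytoid dendritic cell markers, 8 had UMIs in control members and 1, Bst2, in Nrp1L/L members. Per-cell medians were 3 and 8, and 46 of 67 and 13 of 16 members held at least 3 such UMIs. Bst2 is also on the type I interferon list. Apart from Bst2, 1 control member carried 87 UMIs of the other 7 genes beside 10 of Lyz2. Another control member carried 52 of the granzyme gene Gzma. T cell markers, whose CD3 genes the rule limits, gave 12 and 8 UMIs, with 7 of the 8 in 1 Nrp1L/L member. Melanoma genes gave 12 UMIs and 1 UMI in all.

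Fewer maturing monocytes were found among Nrp1L/L cells. They made up 5.11% of control cells (95% Clopper-Pearson interval 3.99 to 6.45) and 1.23% of Nrp1L/L cells (0.705 to 1.99), a difference of -3.88 percentage points (Newcombe interval -5.30 to -2.58). All 5 Lyz2-positive populations together made up 39.9% of the control and 14.3% of the other library, so the difference depends on the denominator. Among Lyz2-positive cells low in C1q, members were 22.6% (18.0 to 27.8) and 13.6% (7.95 to 21.1), a difference of -9.08 points (-16.2 to -0.522). Among maturing and early monocytes alone they were 31.0% and 28.1%, a difference of -2.95 points (-14.8 to 11.1), and no shift between those populations was detectable at this depth. Of the 5 Lyz2-positive populations, interferon chemokine monocytes alone had more cells in the Nrp1L/L library, 59 of 118 C1q-low cells against 41 of 296 in the control. The bar plot of population shares shows these values.

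**Figure D1:**
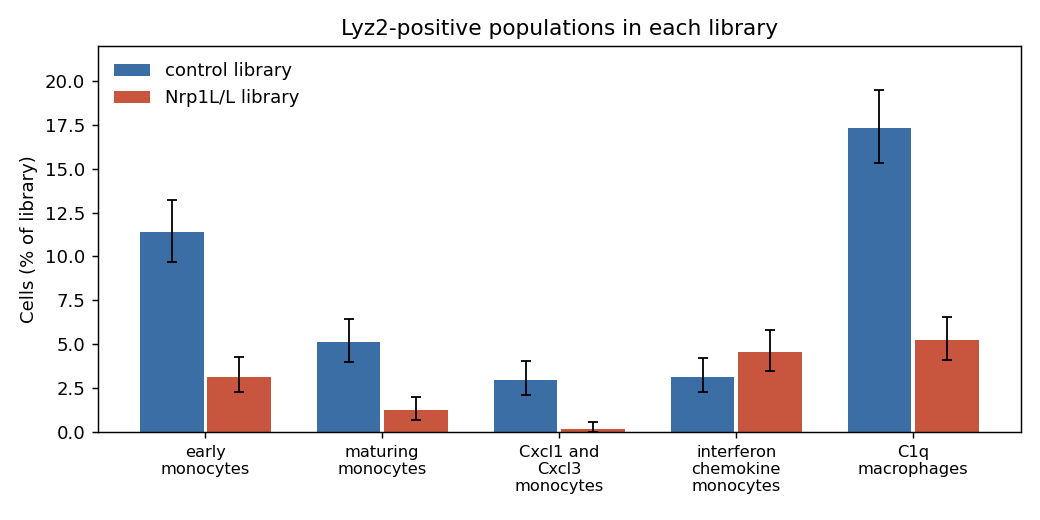
Share of all cells of each library (percent) in 5 Lyz2-positive populations; bars are 1 library each and error bars are 95% Clopper-Pearson intervals, which cover counting error only. Maturing monocytes stand at 5.11% (control) and 1.23% (Nrp1L/L), and interferon chemokine monocytes at 3.13% and 4.53%.

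MHC class II genes set the members apart from early monocytes. Levels are given as CPM, UMIs of a gene per 1000000 UMIs of a population, and a gene is called where its level differs at least 1.5-fold the same way in both libraries. Of 2663 genes with at least 20 UMIs in each library, 108 (4.06%) stood higher in maturing than in early monocytes and 233 (8.75%) lower. Of the 14 genes of the class II presentation list, 11 had enough UMIs, and 7 of these stood higher and 0 lower. The list's median log2 ratio was 0.87 for control and 1.64 for Nrp1L/L cells, against -0.09 and -0.11 over all genes.

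H2-Ab1, the beta chain of the I-A molecule (chr17:34257689-34269419, plus strand, GRCm38), stood at 5786 CPM (Poisson interval 5570 to 6008) in control members and 1993 CPM in control early monocytes. In the Nrp1L/L library it stood at 7603 CPM (7111 to 8119) and 1763 CPM. The log2 ratios were 1.54 (1.46 to 1.62) and 2.11 (1.96 to 2.26), so members were higher in each library. H2-Aa, the alpha chain of the same molecule, stood at 5145 CPM in control members and 1741 CPM in early monocytes, and at 7158 and 1320 CPM in the Nrp1L/L library. H2-Eb1, the I-E beta chain, gave log2 ratios of 1.90 (1.79 to 2.0) and 2.57 (2.36 to 2.78). Cd74, the invariant chain that fills the class II groove until peptide is loaded, stood at 10772 against 4622 CPM and at 14718 against 4045 CPM. The peptide exchange factor gene H2-DMb1 gave 0.79 (0.60 to 0.98) and 1.56 (1.21 to 1.92), and H2-DMb2 gave 2.52 and 2.54 from few UMIs. H2-DMa was level in the control at 0.06 (-0.11 to 0.23) and higher at 1.64 (1.33 to 1.94) in the Nrp1L/L library.

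The class II genes lie side by side on chromosome 17 and share promoter boxes that bind the factors recruiting CIITA. The 250 bases before the start of 3 of them, from RefSeq on GRCm38.p6, are shown because these genes stood higher together, with capitals marking matches to the Y box core GATTGG and to the longer X box core, searched on both strands. Each sequence runs 5 prime to 3 prime on the gene's strand, and positions count from its first base.
H2-Aa: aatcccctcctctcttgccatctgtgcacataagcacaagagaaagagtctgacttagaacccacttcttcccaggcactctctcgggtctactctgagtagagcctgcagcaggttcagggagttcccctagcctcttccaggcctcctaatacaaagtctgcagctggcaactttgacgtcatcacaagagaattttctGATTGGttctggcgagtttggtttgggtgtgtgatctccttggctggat
H2-Eb1: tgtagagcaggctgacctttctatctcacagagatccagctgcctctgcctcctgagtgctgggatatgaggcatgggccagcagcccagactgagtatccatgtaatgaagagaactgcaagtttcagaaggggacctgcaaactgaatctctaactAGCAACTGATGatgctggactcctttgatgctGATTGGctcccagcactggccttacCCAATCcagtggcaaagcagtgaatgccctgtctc
H2-DMb1: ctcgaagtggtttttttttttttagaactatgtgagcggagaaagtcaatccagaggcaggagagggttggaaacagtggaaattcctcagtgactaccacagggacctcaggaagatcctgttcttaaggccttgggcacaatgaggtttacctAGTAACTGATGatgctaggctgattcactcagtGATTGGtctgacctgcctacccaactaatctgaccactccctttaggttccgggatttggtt
The windows lie at chr17:34287824-34288073 on the minus strand, chr17:34305617-34305866 on the plus strand and chr17:34152941-34153190 on the plus strand. The H2-Aa window held the Y core at base 202. The H2-Eb1 window held the X core at base 159 and the Y core at base 191 and, on the opposite strand, at base 216. The H2-DMb1 window held them at bases 156 and 189. None of these matches overlapped another. RefSeq also had windows for H2-DMb2, with the Y core at base 160 and no X core, and for 2 starts of H2-DMa, 1 with the Y core at base 52 and 1 with neither core. The Y core occurred in 4783 of 32851 promoter windows of the same length (14.6%) and the X core in 85 (0.259%). A match describes letters and not a bound site.

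Class II UMIs were broadly but unevenly spread over the members. After thinning every cell to 2500 UMIs, the summed count of H2-Aa, H2-Ab1, H2-Eb1 and Cd74 ran from 0 to 242 in control members with a median of 34, and from 0 to 187 in Nrp1L/L members with a median of 80. A UMI of H2-Ab1 was found in 74.6% of thinned control members (62.5 to 84.5) and 81.2% of Nrp1L/L members (54.4 to 96.0), against 46.3% and 39.0% of early monocytes. T cells, which should hold little of it, had one in 19.1% and 8.44% of cells (median depth 6791 and 5076 UMIs before thinning), with levels of 358 and 80.3 CPM. Single cells weighed most in the smaller library, where the highest cell held 31.6% of the H2-Ab1 UMIs, against 9.79% in the control.

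Outside the rule genes, 2 of the dendritic cell markers had enough UMIs to be measured, Mgl2 and Clec10a, and both stood higher in members than in early monocytes. Mgl2, a galactose-binding lectin, gave 4.61 (3.14 to 6.55) and 4.86 (3.18 to 7.22). One cell held 67.5% of the Mgl2 UMIs of control members, and another held 96.7% of those of Nrp1L/L members. Without cells that had at least 3 UMIs of the 12 dendritic cell markers, the class II medians were 0.67 and 1.33 and the H2-Ab1 ratios 1.09 and 2.05. Without cells that had at least 3 UMIs of NK, B, neutrophil or melanoma markers, the class II medians were 1.03 and 1.06, above 0 in each library.

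The threshold on Chil3, Hp and Mgst1 did not coincide with a step in class II. In the control library H2-Ab1 stood at 6982 CPM in the 45 members without these UMIs and at 3311 CPM in the 22 members with 1 or 2. It stood at 3770 CPM in the 19 cells just outside, with 3 or 4, and at 1785 CPM in the 130 early monocytes with 5 or more. In H2-Ab1, cells just inside and just outside the limit were thus close, and the control contrast with early monocytes lay mainly between cells at 0 and cells well above it. In the Nrp1L/L library the values were 9723 CPM in 11 cells, 3616 in 5, 0 in 2 and 1834 in 39.

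Transcripts of newly arrived monocytes stood lower in members, beyond those the rule used. Of 19 measured genes of the classical monocyte list, 7 stood lower than in early monocytes and 1, Lyz1, higher, with list medians of -0.48 and -0.59. Plac8, a small cysteine-rich protein abundant in Ly6C-high monocytes, stood at 5249 CPM in control members and 8795 in early monocytes, and at 4980 and 11173 CPM in the Nrp1L/L library. Its log2 ratios were -0.74 (-0.81 to -0.68) and -1.17 (-1.29 to -1.04). Ccr2, the receptor that brings monocytes out of marrow, stood at 333 against 614 CPM among control cells and at 239 against 675 CPM among Nrp1L/L cells. Gsr, which encodes glutathione reductase, stood at 175 against 599 CPM and at 76.9 against 792 CPM. F13a1 (coagulation factor XIII), Msrb1 and the growth factor receptor gene Csf1r were also among the 7. Ly6c2 did not move alike in the libraries, with ratios of -0.94 (-1.07 to -0.82) in the control and 0.15 (-0.00 to 0.30) in the Nrp1L/L library. Among the genes with the largest differences, Smpdl3a, Slpi, Ifitm6 and the transferrin gene Trf also stood lower in members.

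Part of the macrophage list stood above early monocytes. Of 20 measured genes of the macrophage differentiation list, 3 stood higher in members than in early monocytes: Ms4a7, the cathepsin gene Ctsl and the legumain gene Lgmn. Ms4a7, a tetraspan protein of mature macrophages, stood at 120 CPM in the members of each library against 39.4 and 49.9 CPM in early monocytes, but its UMIs came from 10 control and 2 Nrp1L/L cells. Lgmn stood at 1536 against 915 CPM and at 1614 against 698 CPM. Another 3 stood lower, Sepp1 and Tmem176b among them. Of all genes, 4.06% stood higher and 8.75% lower. The list medians were 0.11 and 0.59, against -0.09 and -0.11 over all genes. The Nrp1L/L median was -0.080 without each gene's highest cell. Among other genes, the lipid droplet coat Plin2 gave 0.79 and 1.73 and the lipoprotein lipase gene Lpl 1.01 and 1.46. The iron storage gene Fth1, the most abundant of the members' named transcripts, gave 0.65 (0.62 to 0.69) and 1.01 (0.93 to 1.09). Rgs1, which dampens chemokine receptor signals, stood at 1233 against 398 CPM and at 1076 against 111 CPM. Spp1 (osteopontin) gave 1.39 and 4.27, of which 1 cell held 58.8% of the Nrp1L/L UMIs, and the ratio there was 0.63 without cells holding at least 5 cell cycle UMIs.

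Set between early monocytes and C1q macrophages, the members held a middle place for part of the monocyte and macrophage genes, and the highest one for 7 of 11 class II genes. Of the 19 classical genes measured, 11 stepped down from early monocytes to members to macrophages in each library, among them Plac8, Ccr2, S100a4 and Cd14. Of 20 macrophage genes, 9 stepped up in each library, among them Ms4a7, Ctsd, Ctsb and Cd68. The class II genes highest in members in each library were H2-Aa, H2-Ab1, H2-Eb1, H2-DMa, H2-DMb1, H2-DMb2 and Cd74. These counts use the order of the levels alone, and neighbours in the order can differ by less than their counting error. How often all genes show each order was not computed, so the counts describe these lists without a background. For H2-Ab1 the control order was members at 5786, interferon chemokine monocytes at 4791, macrophages at 3489 and early monocytes at 1993 CPM. In the Nrp1L/L library members at 7603 CPM were followed by macrophages at 6443, interferon chemokine monocytes at 2725 and early monocytes at 1763 CPM. The panels of 16 genes by stage show early monocytes, members and C1q macrophages for part of these genes, without interferon chemokine monocytes.

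**Figure D2:**
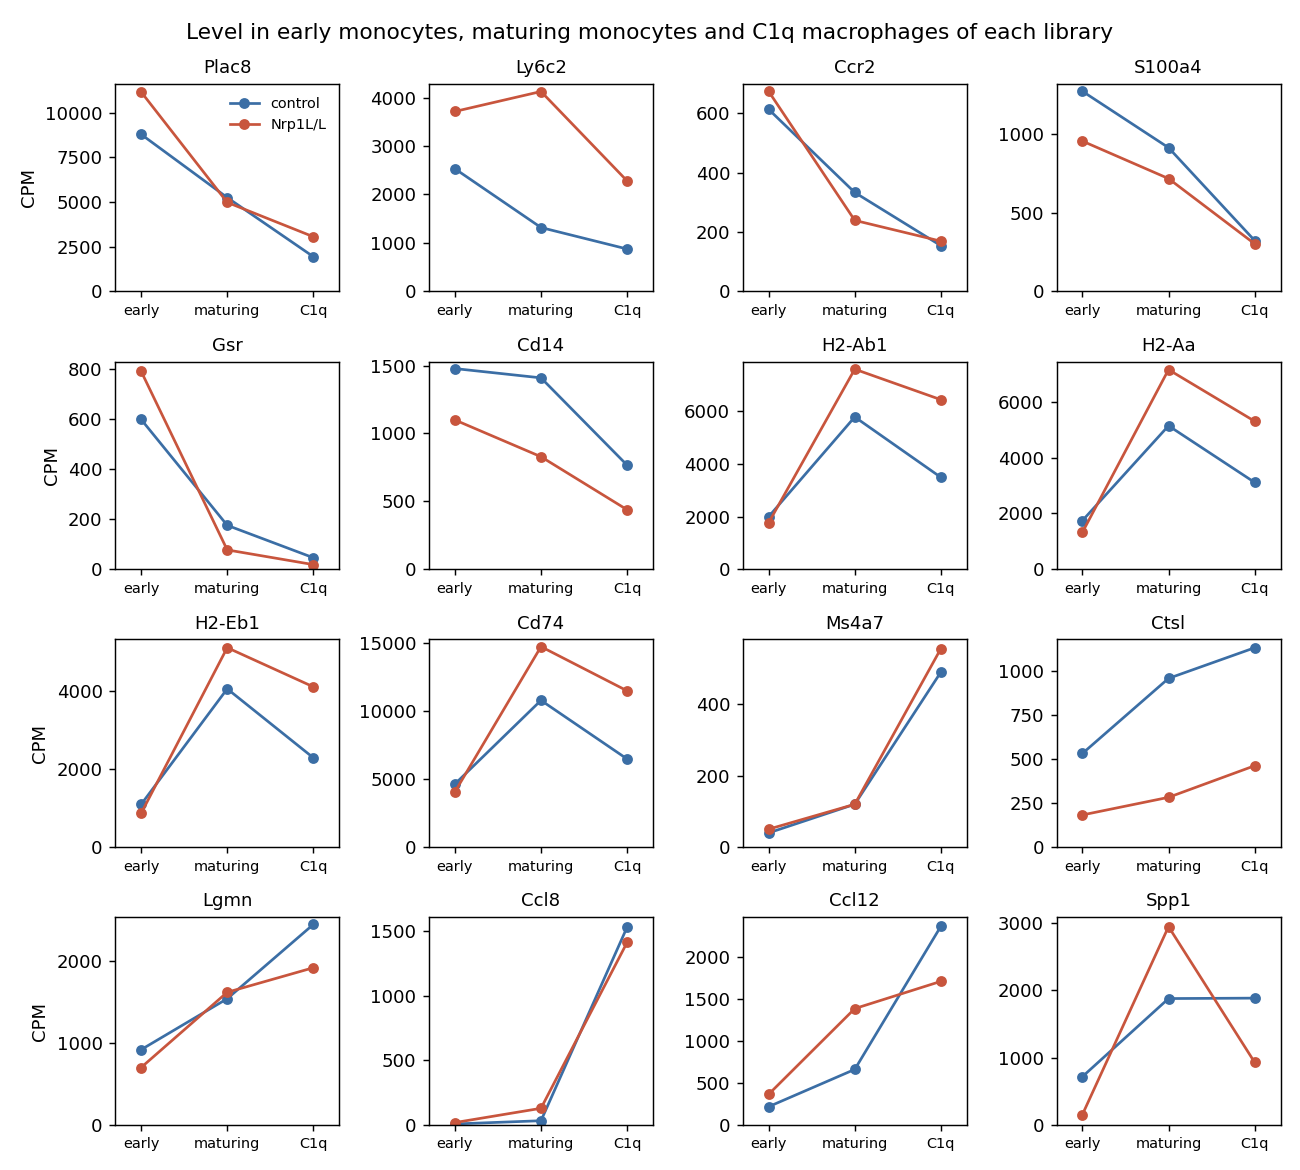
Level (CPM, linear axis from 0) of 16 genes in early monocytes, maturing monocytes and C1q macrophages of the control and Nrp1L/L libraries; each point is 1 population sum with no replicate. Plac8, Ccr2 and Gsr step down, Ms4a7, Lgmn and Ccl12 step up, and H2-Aa, H2-Ab1, H2-Eb1 and Cd74 are highest in maturing monocytes in each library.

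The place of class II relative to macrophages was not settled in the Nrp1L/L library. Members against C1q macrophages gave list medians of 0.73 (control) and 0.36 (Nrp1L/L), with H2-Ab1 at 0.73 (0.67 to 0.79) and 0.24 (0.13 to 0.34). Over the alternatives the H2-Ab1 ratio ran from 0.14 to 0.89 for control cells and from -0.43 to 0.56 for Nrp1L/L cells. The value of -0.43 was reached without cells holding NK, B, neutrophil or melanoma marker UMIs. The early and macrophage contrasts share the member cells and are not independent of each other.

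Compared with C1q macrophages, members stood higher in monocyte transcripts and lower in macrophage ones. Of 3911 genes, 187 (4.78%) stood higher in members and 341 (8.72%) lower. With scaling by the median ratio in place of total UMIs, which takes a control log2 ratio of -0.149 as no difference, 254 stood higher and 255 lower. Of 20 classical monocyte genes, 10 stood higher and 0 lower, with medians of 0.99 and 0.71 against -0.11 in each library over all genes. S100a4, a calcium-binding protein, stood at 914 CPM in control members and 323 CPM in macrophages, and at 718 and 302 CPM in the Nrp1L/L library. Cd14, the lipopolysaccharide co-receptor, gave 0.88 (0.75 to 1.01) and 0.92 (0.58 to 1.25), and Clec4e, the mycobacterial cord factor receptor, 1.38 and 1.72. Ly6c2 gave 0.59 (0.46 to 0.72) and 0.86 (0.71 to 1.00).

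Of 27 macrophage differentiation genes, 12 stood lower in members than in C1q macrophages and 0 higher, beside 8.72% and 4.78% of all genes. The list medians were -0.89 and -0.87. Trem2, a lipid receptor, stood at 62.0 CPM in control members and 459.5 CPM in macrophages, and at 8.54 and 236 CPM in the Nrp1L/L library. Cd63, a lysosomal tetraspanin, gave -2.22 (-2.56 to -1.89) and -4.92 (-7.97 to -3.06). Outside the list Ccl8, a monocyte-attracting chemokine, gave -5.58 and -3.46. Pf4 (platelet factor 4, made by tissue macrophages too) stood at 353 CPM in control members and 2325 CPM in control macrophages. It had 0 UMIs in Nrp1L/L members, where macrophages stood at 327 CPM, a log2 ratio of -3.67 or lower with a floor of 3 UMIs. Mrc1, Folr2 and Stab1, scavenger and vitamin receptors of resident macrophages, were also among the 12.

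Several stimulus-responsive genes also stood above macrophages. Of 28 immediate early and stress genes, 9 stood higher in members and 0 lower (medians 0.98 and 0.36). Of 38 type I interferon genes, 9 stood higher and 0 lower (medians 0.65 and 0.27). Of all genes, 4.78% stood higher and 8.72% lower. Isg15, a ubiquitin-like protein induced by interferon, gave 0.67 (0.54 to 0.80) and 0.67 (0.49 to 0.84). The heat shock gene Hspa1a gave 2.11 and 2.25, with a UMI in 29 control and 7 Nrp1L/L members, of whose UMIs 1 cell held 15.8% and 63.9%. Immediate early and heat shock transcripts can also appear while tissue is dissociated, and their part in these ratios was not tested. The plot of list medians gathers these comparisons.

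**Figure D3:**
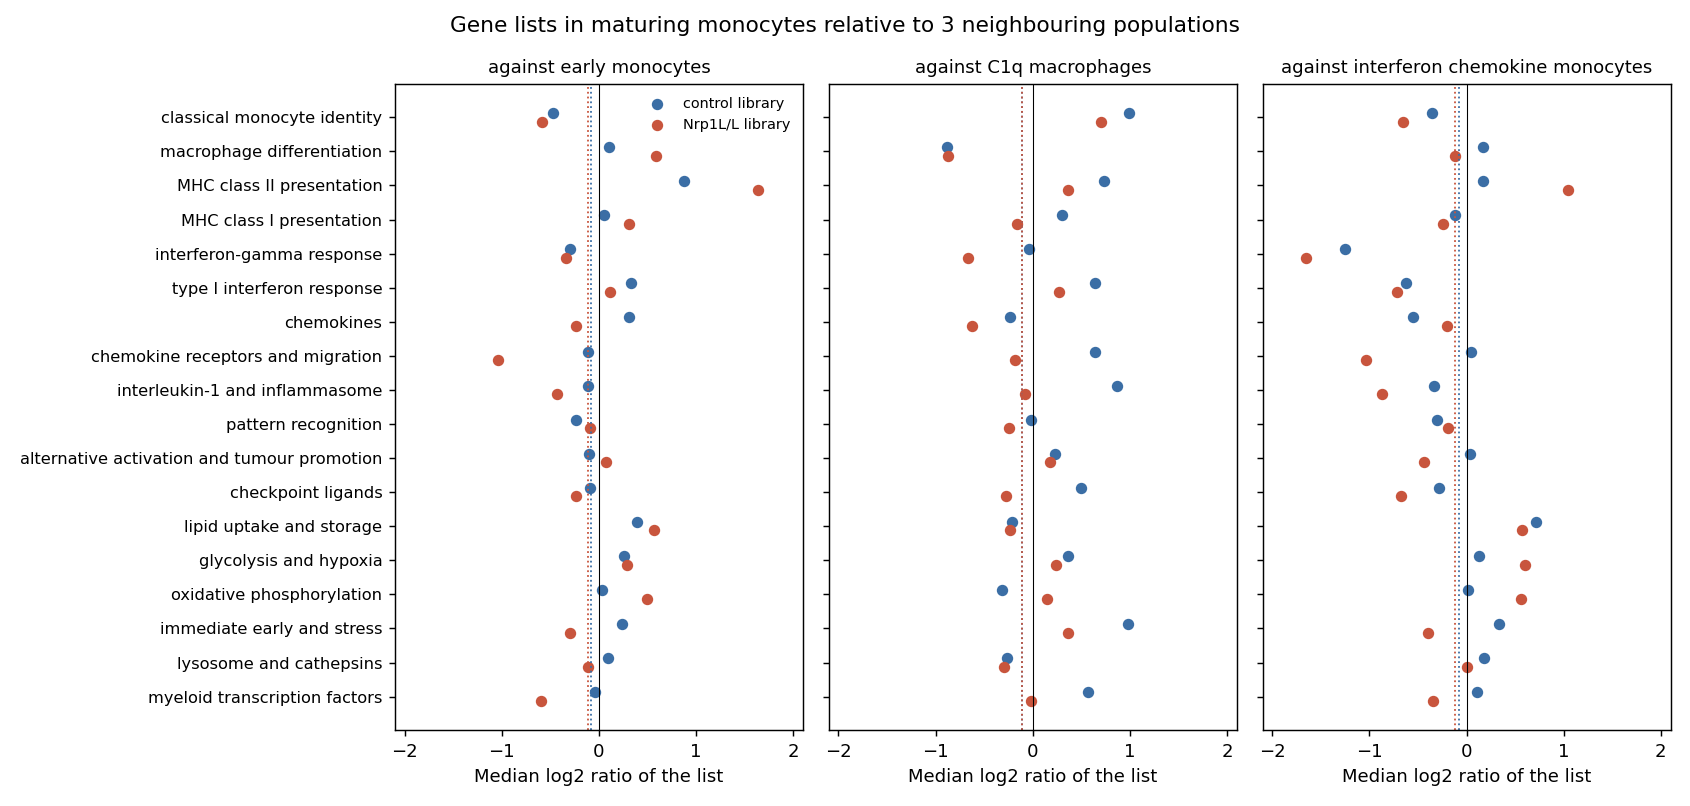
Median log2 ratio of each gene list (rows) in maturing monocytes against early monocytes, C1q macrophages and interferon chemokine monocytes, in the control and Nrp1L/L libraries; dotted lines mark the median of all genes. The class II list stands at 0.87 and 1.64 against early monocytes, the classical list at 0.99 and 0.71 against macrophages, and the interferon-gamma list at -1.25 and -1.66 against interferon chemokine monocytes.

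Interferon-induced genes stood lower in members than in interferon chemokine monocytes, a contrast the rule builds in by its limit on Cxcl9 and Cxcl10. Of 2839 genes, 119 (4.19%) stood higher in members and 251 (8.84%) lower. Of 21 measured interferon-gamma response genes, 17 stood lower and 0 higher (medians -1.25 and -1.66), and of 37 type I interferon genes, 13 lower and 0 higher. Gbp2, a guanylate-binding protein, stood at 312 CPM in control members and 887 CPM in interferon chemokine monocytes, and at 350 and 2065 CPM in the Nrp1L/L library. Class II did not follow these genes down. H2-Ab1 gave 0.27 (0.19 to 0.36) in the control and 1.48 (1.35 to 1.61) in the Nrp1L/L library. The class II list median there, 1.04, was -0.29 without cells holding NK, B, neutrophil or melanoma marker UMIs. Rgs1 (1.97 and 2.11), the transcriptional regulator Id2 (1.54 and 2.17) and Plin2 (0.89 and 1.13) stood higher in members.

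Against early monocytes, 1 of 19 interferon-gamma response genes stood higher, Cd274, and 5 lower, Gbp2 among them, beside 4.06% and 8.75% of all genes. The medians were -0.30 and -0.34, against -0.09 and -0.11 over all genes. Cd274, which encodes the T cell inhibitory ligand PD-L1, stood at 87.6 against 52.6 CPM among control cells and at 196 against 76.3 CPM among Nrp1L/L cells. In the type I list 4 of 34 stood higher and 0 lower, with medians of 0.33 and 0.12.

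The members varied widely among themselves. In thinned control members Plac8 ran from 0 to 54 UMIs (median 10), Ly6c2 from 0 to 26 (median 1), Il1b from 0 to 57 (median 1) and Apoe from 0 to 71 (median 1). When control members were divided by their C1q UMIs, a sum the rule limits, Ly6c2 stood at 1651 CPM in the 33 cells with 0, at 1405 CPM in the 22 with 1 to 2 and at 336 CPM in the 12 with 3 to 9. Il1b stood at 2961, 1875 and 750 CPM in the same cells. Apoe stood at 3020, 1624 and 6276 CPM, so it did not step evenly, and H2-Ab1 stood at 5739, 5663 and 6120 CPM. Only 2 control cells and 1 Nrp1L/L cell lay just outside that limit, with 10 to 12 C1q UMIs. Heat shock UMIs of Hspa1a and Hspa1b had a median of 0 and a maximum of 147 in control members. The plot of single cells shows this spread.

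**Figure D4:**
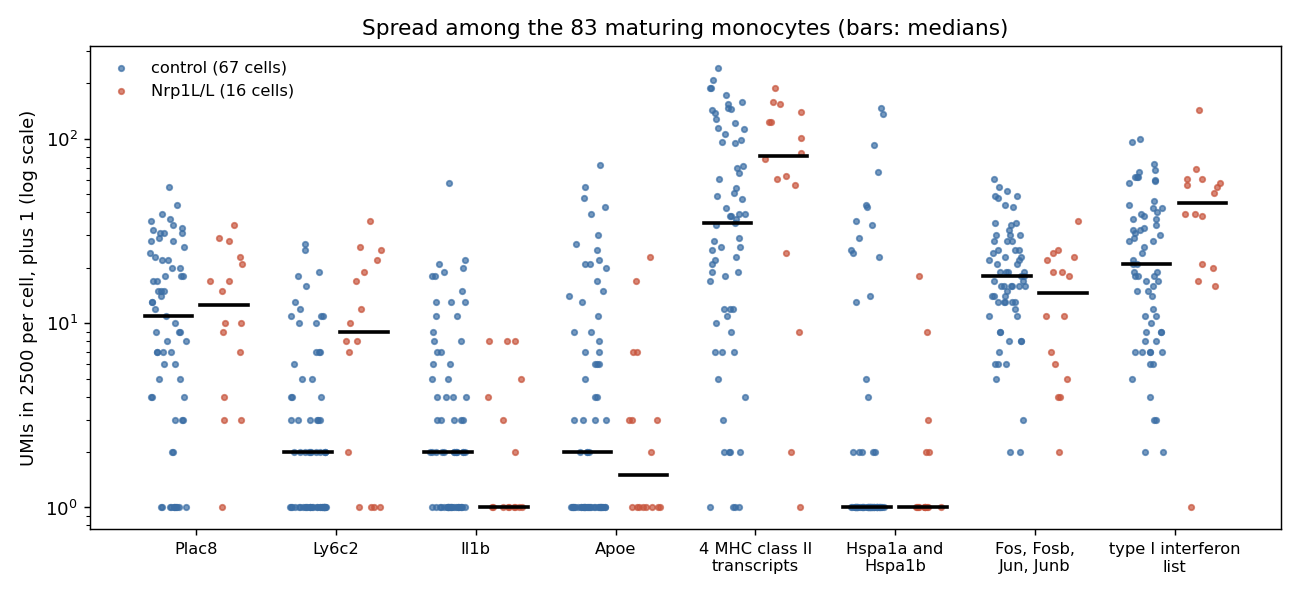
UMIs per cell after thinning each of the 83 members to 2500 UMIs (log axis, 1 added) for 4 genes and 4 gene sums; each point is a cell, the bars are medians, and colours mark the library. Class II sums reach 242 (control) and 187 (Nrp1L/L), while Hspa1a and Hspa1b have a median of 0 in each.

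Between the genotypes, interferon-induced genes were among those that stood higher in Nrp1L/L members, and Il1b, Cxcl2 and immediate early genes among those that stood lower. Over 3065 genes with at least 20 UMIs in members, 647 (21.1%) stood at least 1.5-fold higher in the Nrp1L/L library and 827 (27%) lower, with an all-gene median of -0.00067. Of 17 measured interferon-gamma response genes, 9 stood higher and 2 lower (median 0.64, 0.25 to 1.0 over the alternatives). Of 34 type I interferon genes, 13 stood higher and 1, Ifit3, lower (median 0.46, 0.09 to 0.70). The background is the 21.1% of all genes that stood higher.

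Isg15 stood at 1359 CPM (1255 to 1469) in control and 2904 CPM (2604 to 3230) in Nrp1L/L members, a log2 ratio of 1.10 (0.90 to 1.29). After thinning, a UMI of Isg15 was found in 73.1% (60.9 to 83.2) and 93.8% (69.8 to 99.8) of members. Other populations stood the same way, with early monocytes at 1024 and 1751 CPM, C1q macrophages at 855 and 1826, interferon chemokine monocytes at 2133 and 3377 and T cells at 174 and 392. Isg15 was thus higher in all 5 of these populations of the Nrp1L/L library, and whether the size differs between them was not tested. Irf7, the master regulator of type I interferon genes, gave 0.82 (0.55 to 1.09), Gbp4 2.12 (0.82 to 3.45) and Cd274 1.17 (0.36 to 1.94). Not all interferon genes differed, since 6 of the 17 interferon-gamma genes and 20 of the 34 type I genes lay within 1.5-fold. Gbp2 gave 0.17 (-0.37 to 0.68) in members, while early monocytes stood at 516 and 1062 CPM and macrophages at 119 and 670.5 CPM.

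Ly6c2, whose product is the monocyte antigen Ly6C and is itself interferon-inducible, stood at 1316 CPM (1214 to 1424) in control and 4126 CPM (3766 to 4511) in Nrp1L/L members. Its log2 ratio was 1.65 (1.47 to 1.82). Early monocytes stood at 2531 and 3713 CPM, macrophages at 872 and 2279 and T cells at 1069 and 2557. Ly6i stood at 182 and 530 CPM in members, a ratio of 1.54 (1.05 to 2.03). Plac8 and Ccr2 did not follow, at -0.08 (-0.21 to 0.05) and -0.48 (-1.11 to 0.11). The classical list as a whole had 5 of 21 higher and 8 lower, beside 21.1% and 27% of all genes.

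Il1b stood at 2169 CPM (2037 to 2306) in control and 555 CPM (429 to 708) in Nrp1L/L members, a log2 ratio of -1.97 (-2.35 to -1.60, and -2.17 to -1.28 over the alternatives). Early monocytes stood at 2150 and 1833 CPM, interferon chemokine monocytes at 3759 and 3092 and macrophages at 857 and 916, so these 3 populations stood closer together across the libraries than members did, a difference that was not tested. After thinning, a UMI of Il1b was found in 65.7% (53.1 to 76.8) of control and 43.8% (19.8 to 70.1) of Nrp1L/L members, intervals that overlap. T cells, which should lack it, had one in 4.97% and 2.99%. The highest cell held 18.0% and 32.3% of the UMIs. The interleukin-1 and inflammasome list as a whole had 5 of 16 genes higher and 6 lower (median -0.10), beside 21.1% and 27% of all genes. Cxcl2, a neutrophil-attracting chemokine, stood at 2577 and 658 CPM in members, a ratio of -1.97 (-2.32 to -1.64), and stood lower in the other populations too, with early monocytes at 2864 and 777 CPM.

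Of 31 immediate early and stress genes, 14 stood lower in Nrp1L/L members and 2 higher (median -0.56, -0.73 to -0.42 over the alternatives), against 27% lower over all genes. The transcription factor gene Fos gave -0.59 (-0.80 to -0.39). Hspa1a stood at 4130 CPM in control and 521 CPM in Nrp1L/L members, but the share of thinned members with a UMI was 31.3% (20.6 to 43.8) and 31.2% (11 to 58.7). The level thus differed while the share of cells with a UMI was close, and 1 cell held 63.9% of the Nrp1L/L UMIs. Heat shock genes are known to respond to tissue handling, whose part was not tested.

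Apoe, Pf4 and some other macrophage transcripts stood lower in Nrp1L/L members. Of 25 macrophage differentiation genes, 11 stood lower and 3 higher, beside 27% and 21.1% of all genes, and the list median equalled that of all genes at -0.00067. Apoe stood at 3166 and 1051 CPM, a ratio of -1.59 (-1.87 to -1.32), and the highest cell held 24.8% and 23.6% of its UMIs. Pf4 had 165 UMIs in 17 control members and 0 in Nrp1L/L members, a log2 ratio of -3.78 or lower with a floor of 3 UMIs over the population. Ccl24 had 100 UMIs in 9 control members, 66% of them in 1 cell, and F13a1 had 49 in 22 members, each with 0 in the Nrp1L/L library. Arg1, the arginine-degrading enzyme of suppressive myeloid cells, stood at 1179 and 504 CPM, with 31.9% and 61.0% of UMIs in 1 cell. Of 16 alternative activation genes, 8 stood lower and 2 higher (median -0.65), and of 9 non-classical monocyte genes 5 lower and 0 higher (median -0.74). T cells, which should lack these transcripts, differed the same way. After thinning, a UMI of Apoe was found in 11.8% of control and 2.99% of Nrp1L/L T cells, one of Pf4 in 4.97% and 0.272%, and one of Arg1 in 2.88% and 0.816%. Among members the thinned shares were 53.7% and 50% for Apoe, 13.4% and 0% for Pf4 (0 of 16 cells allows up to 18.8%) and 29.9% and 37.5% for Arg1. The part of free macrophage RNA in these differences was not tested.

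Class II ratios between the genotypes depended on the cells included. H2-Ab1 gave 0.39 (0.28 to 0.50) and Cd74 0.45 (0.37 to 0.53). Of 11 class II genes, 3 stood higher and 1 lower (median 0.45), beside 21.1% and 27% of all genes. Without cells holding NK, B, neutrophil or melanoma marker UMIs, which left 62 control and 11 Nrp1L/L members, the list median was -0.07. Of 31 oxidative phosphorylation genes, 10 stood higher and 1 lower, beside the same shares of all genes. The median of 0.28 was -0.04 without each gene's highest cell. The genes with the largest positive ratios rested on single cells, with 1 Nrp1L/L cell holding 96.9% of the UMIs of Tmem126b, 94.6% of Hspb11 and 93.3% of Lyz1. Upp1, which encodes uridine phosphorylase, was spread over more cells. It had 23 UMIs in 8 control and 54 in 6 Nrp1L/L members, a ratio of 3.23 (2.50 to 4.0). The plot of 3 gene lists shows each gene's ratio with its counting interval.

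**Figure D5:**
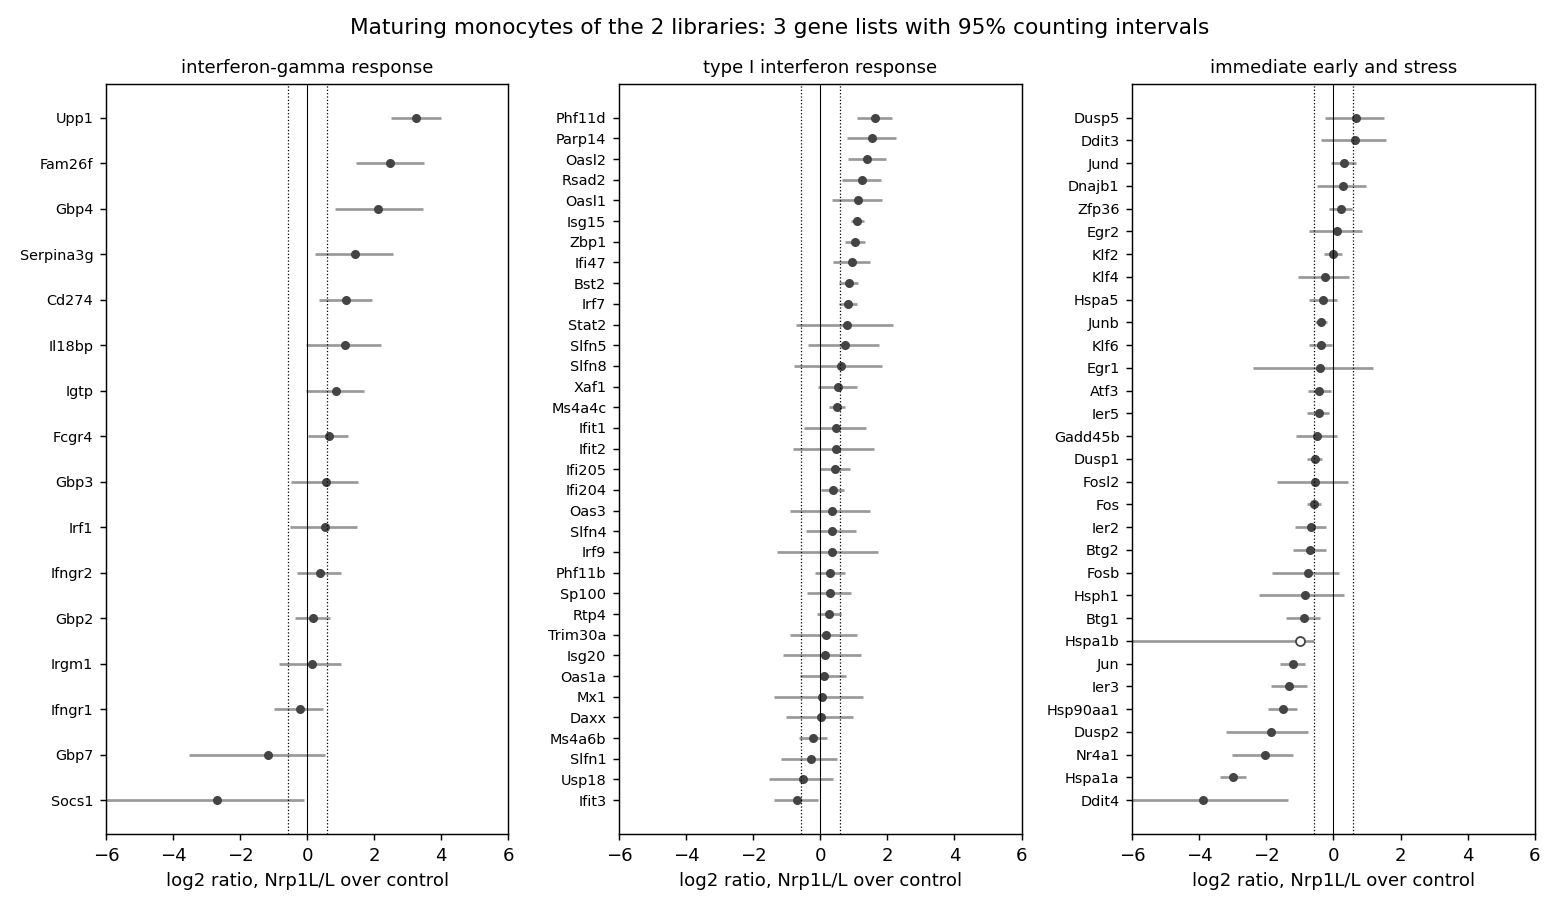
Log2 ratio of Nrp1L/L over control members for measured genes of the interferon-gamma list (1 not drawn), the type I interferon list and the immediate early list; lines are 95% counting intervals, cut at the axis ends, open circles are bounds where Nrp1L/L members had 0 UMIs, and dotted lines mark 1.5-fold. List medians are 0.64, 0.46 and -0.56.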

How the data were processed

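Per the labels, CD45+ cells were sorted from B16 tumours, 2600 cells were loaded per library on a GemCode instrument and cDNA was amplified over 14 cycles. Per the submitters' processing notes, the tools and build were Cell Ranger 1.3 and mm10. The deposited matrices hold raw UMI counts for 27998 genes per called barcode, and no counts were changed. Every barcode had 200 genes or more, and no more than 10% of its UMIs were mitochondrial. Doublets were kept. Scrublet in scanpy 1.11.5 called 8 control cells (1 a member) and 3 Nrp1L/L cells (0.231%), so there the highest-scoring 26 (1 a member) were left out in an alternative.

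The members, gene lists and neighbouring populations were chosen with earlier results of these data known. UMIs were summed per population and library. Intervals (95%) were Poisson for CPM, conditional binomial for log2 ratios and Clopper-Pearson for shares, computed with scipy 1.17.1 and tested on simulated data. A side with 0 UMIs was given a floor of 3. Such intervals treat UMIs as independent, while many genes' UMIs sit in single cells. Genes read by the rule were left out. Named genes were list members, the 4 label markers, the 10 most abundant genes and, per comparison, the 12 higher and 12 lower genes whose interval bound lay farthest from 0. A few genes of the lists are counted but not reported by name here. Shares of cells with a UMI were taken after thinning to 2500 UMIs where stated, and otherwise on all UMIs. Alternatives varied the rule, doublets, cells with other markers, scaling (edgeR 4.0.16 for TMM), UMI minimum, thinning and each gene's highest cell. The T cells used for background had at least 3 CD3 UMIs and fewer than 3 Lyz2 UMIs. Promoters came from RefSeq, GRCm38.p6. Gene positions came from an annotation of GRCm38 matched by gene ID for 684 of 684 genes.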

Additional observations from a re-analysis of the deposited data

Results flagged for a closer look

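Some genes of the lists stood at least 1.5-fold higher in members than in a neighbouring population in 1 library and at least 1.5-fold lower in the other, with both intervals clear of 0. There were 6 such genes against early monocytes, 7 against interferon chemokine monocytes and 17 against C1q macrophages. They were counted among the measured list genes and the named genes alone. The share of all measured genes that did so was not computed, so whether these counts are large or small is not known. Values follow for 4 of them, from the genes singled out for each comparison. Each library is a single sample, and the difference was not tested.

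Against early monocytes, the interferon-induced gene Ifit3 stood higher in control members at 1.71 on the log2 scale and lower in Nrp1L/L members at -0.94. Against interferon chemokine monocytes, the heat shock gene Hspa1a gave 3.23 for control and -1.25 for Nrp1L/L cells. Against C1q macrophages, Gbp2 gave 1.39 and -0.94, and Il1b gave 1.34 and -0.72. For each of these the difference between libraries was not tested. The 24 Ifit3 UMIs of Nrp1L/L members came from 7 cells, the 61 of Hspa1a from 7, the 41 of Gbp2 from 9 and the 65 of Il1b from 9.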

How the results depend on the processing

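No paired analysis was possible because each genotype has 1 library and no replicate. The share of maturing monocytes among all cells, the one share recomputed, kept the sign of its difference under its 9 alternatives. It was -5.46 points (9.10% and 3.64%) when cells holding NK, B, neutrophil or melanoma marker UMIs were taken out of members and denominator alike. Both shares rose from 5.11% and 1.23% because the denominators shrank, so this larger difference is not comparable in size with -3.88 points. Of 120 counts of genes, 91 stayed within 1.5 times. Higher and lower genes between genotypes were 259 and 268 with at least 50 UMIs per gene, 2051 and 1361 with any UMI on each side, and 291 and 346 after thinning, and 246 were higher without each gene's highest cell. Against early monocytes the same settings gave 47 and 97, 465 and 409, 51 and 90, and 51 higher. Against C1q macrophages they gave 71 and 137, 519 higher, 59 and 117, and 51 and 521. In that comparison 108 were higher without cells holding other types' markers, and 195 lower without cells holding at least 5 cell cycle UMIs. Against interferon chemokine monocytes the same settings gave 36 and 110, 548 higher, 42 and 117, and 61 higher. Fewer or more genes enter these counts by construction, and leaving out the highest cell takes more from 16 cells than from 67.

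Of 2223 list medians 4 changed sign, and of 3845 gene ratios 16, and the cause was not tested. With the limit on Chil3, Hp and Mgst1 at 2, the genotype ratios of Fam204a and Spp1 were -0.0097 and -0.63, Trib1 against macrophages was -0.39 and Sqstm1 against interferon chemokine monocytes -0.15, both in the Nrp1L/L library. In members the upper quartile of thinned cell cycle UMIs was 5 (control) and 5.75 (Nrp1L/L). Without cells holding at least 5 such UMIs, the genotype ratios of Fam204a and Spp1 were -2.22 and -2.85. Against macrophages, Lyz1 was then -1.12 and the cell cycle list 0.13 in the control, and Adgre1 was 0.19 and Gbp2 0.45 in the Nrp1L/L library. Hspa1a against interferon chemokine monocytes was 0.28 there. Without each gene's highest cell the genotype ratios of Hspb11 and Spp1 were -1.10 and -0.24, and the macrophage list against early monocytes was -0.080 in the Nrp1L/L library. Without cells holding dendritic cell markers, Lyz1 between genotypes was -0.57, Ccnd2 against early monocytes -0.40 in the Nrp1L/L library and Ccl24 against interferon chemokine monocytes 0.52 in the control. With the rule on scaled UMIs, Lyz1 against macrophages was -0.11 in the control. With means of per-cell proportions the cholesterol list against macrophages was -0.090 in the Nrp1L/L library. Without other types' markers, the class II list against interferon chemokine monocytes was -0.29 there. The exclusions of cells with dendritic markers and of each gene's highest cell were chosen after seeing the data. With 16 Nrp1L/L members, differences carried by 1 or 2 cells cannot be told from differences of the population.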

Other observations

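Sterol and sugar metabolism gave a few values outside the comparisons above. Against C1q macrophages, 5 of 15 measured cholesterol synthesis genes stood higher in members and 1 lower, beside 4.78% and 8.72% of all genes. Mvd, Sc5d, Msmo1 and Soat1 were among the higher ones, and the medians were 0.59 and 0.62. Of the 20 fatty acid synthesis genes tied to SREBP1, 3 had enough UMIs, and 0 were called in either direction. Of 27 glycolysis and hypoxia genes, 5 stood higher than in macrophages and 0 lower, beside the same shares of all genes. Hif1a, the hypoxia-induced transcription factor, and the glycolytic regulator Pfkfb3 were among the 5. Against early monocytes, 2 of 25, Gapdh and Mif, stood higher and 0 lower, beside 4.06% and 8.75% of all genes.

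The rule was written on raw UMIs. Applied to UMIs scaled to 8000 per cell, it kept 56 of the 67 control members (83.6%) and 14 of the 16 Nrp1L/L members (87.5%), and took 66 and 16 cells in all.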
